A study of Mus musculus with 16 samples.

Results

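The genes examined here make fatty acids from acetyl-CoA and join them to glycerol as triglyceride. They form a list of 32, chosen by name, of which 30 had a probe set that names them alone among the 18194 genes measured in mouse liver. Lipc and G6pdx are listed members with no such probe set, and their expression was not analysed here. Where a gene had several probe sets, the highest by mean over all arrays stood for it. Each of the 16 arrays held the liver RNA of 1 male KK-Ay mouse, 11 weeks old. KK-Ay mice carry the yellow agouti allele on the KK background and become obese and diabetic, and all mice of both groups share that genotype. The normal diet group (n = 8) ate a purified diet, and the MSE group (n = 8) ate it with 0.1% of an extract of maple syrup (MSE) added. Mice were housed singly and pair-fed for 43 days, and liver was collected after 16 h without food, so every value below is from the fasted state. The comparison asks whether the extract altered expression of these genes in the livers of diabetic mice.

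As background, lipogenesis converts citrate exported from mitochondria into acetyl-CoA, malonyl-CoA and palmitate, with NADPH from malic enzyme and the pentose phosphate pathway. In liver it is switched on after feeding by the transcription factors SREBP-1c, driven by insulin, and ChREBP, driven by glucose metabolites, with the oxysterol receptor LXR alpha acting upstream of SREBP-1c. The palmitate is elongated, desaturated, activated to acyl-CoA and esterified onto glycerol phosphate in successive acyltransferase and phosphatase steps. In obese diabetic mice this programme is known to contribute to fatty liver, and fasting is known to lower it.

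The deposited values ran from 5.05 to 14.56, a range from which a log2 scale is inferred, and mice differed very little on it. Across arrays, probe sets had a median SD of 4.98 millionths of a log2 unit, and the lowest correlation between arrays was 0.9999. A difference on this scale is therefore not a fold change of the transcript. Levels below are deviations from a gene's mean over the 16 mice, in millionths of a log2 unit, and sizes are given in SDs within diets (the difference of the diet means divided by the pooled SD of the 8 mice per diet). With 8 mice per diet a difference has a 95% interval of 1.07 SDs to either side. Beside it stands a count over all 64 pairings of a mouse on MSE with a mouse on the normal diet, of those where the former was higher (or lower). In bulk liver, fewer cells of a type and less RNA per cell cannot be told apart. Hepatocyte markers were measured for 7 of 8 listed genes, with Alb, serum albumin, at a mean of 14.34 log2 units. Of the 7, 4 had a higher and 3 a lower mean with MSE, from 0.80 SDs for Apoa1 to -1.05 SDs for Tat. The 4 include Alb, whose difference of 3.97e-08 SDs is no difference in practice.

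No lipogenesis or triglyceride synthesis gene passed the test between the diets. Of the 30 genes, 16 had a higher mean and 14 a lower mean with MSE, where 48.3% of all genes were higher. The median difference was 0.01 SDs over the members and -0.02 SDs over all genes. In limma's test with Benjamini-Hochberg adjustment over all genes, 0 members passed an adjusted p under 0.05, where 0% of all genes passed, and the smallest adjusted p of a member was 0.555. At an unadjusted p under 0.05 there was 1 member, Taldo1, which was lower, against 6.66% of all genes in either direction and 4.07% lower. The exact permutation test over all regroupings of the mice gave the same count, 1, where 6.6% of all genes reached that level. The difference was under 1 SD for 28 of the 30 genes. A p that misses the threshold does not show that the diets act alike on these genes, since the intervals reach 1 SD or more on at least one side. Directions below hold for the values as deposited. Quantile normalization, which raised the SD within diets of 24 of the 30 members, turned the sign of 11 of them. Over all genes it gave 780 higher and 686 lower at an unadjusted p under 0.05, in place of 471 and 741. Some genes kept 1 rank on every array, and so had no difference left after it, 1466 of 18194 genes and 0 of the members.

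**Figure D1:**
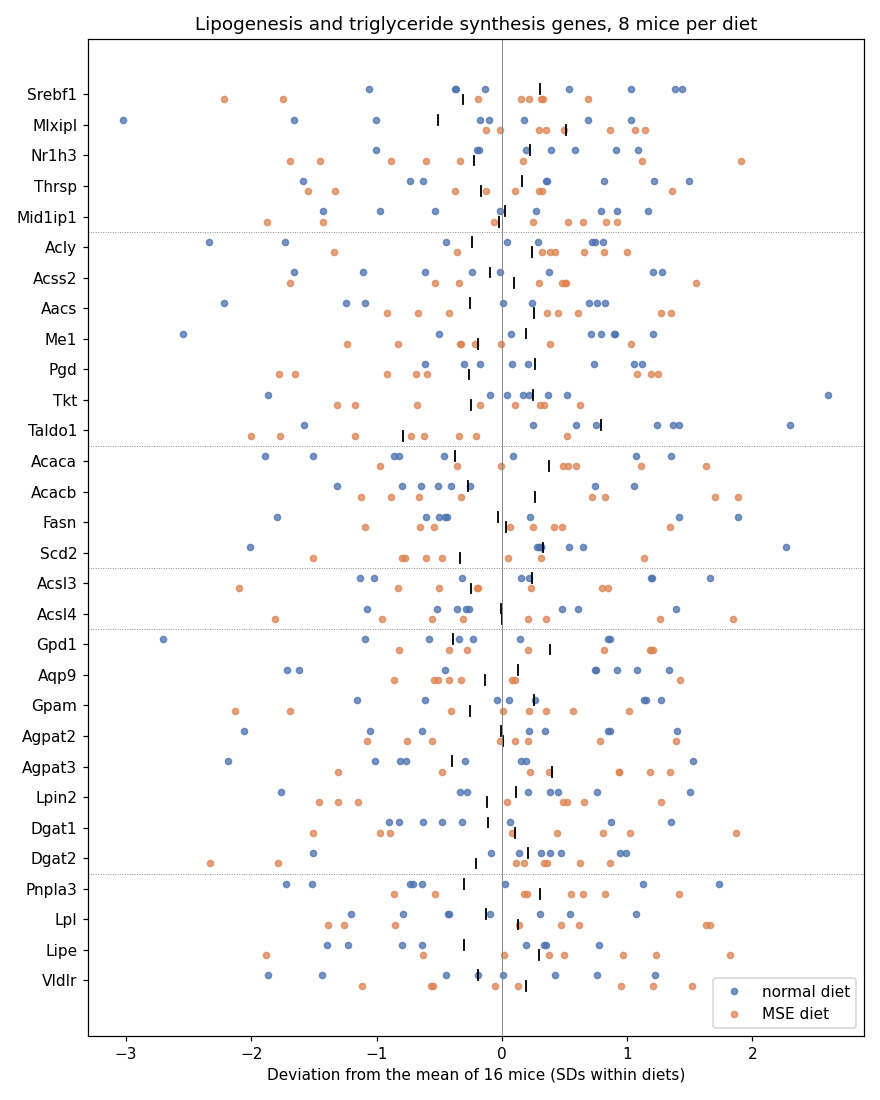
Each point is 1 mouse, as its deviation from the gene's mean over 16 mice in SDs within diets (horizontal axis), for the 30 genes in order of role with dotted lines between roles; black ticks are diet means. The diets overlap for each gene shown, and Taldo1 has the widest gap between the ticks, with means 1.58 SDs apart.

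**Figure D2:**
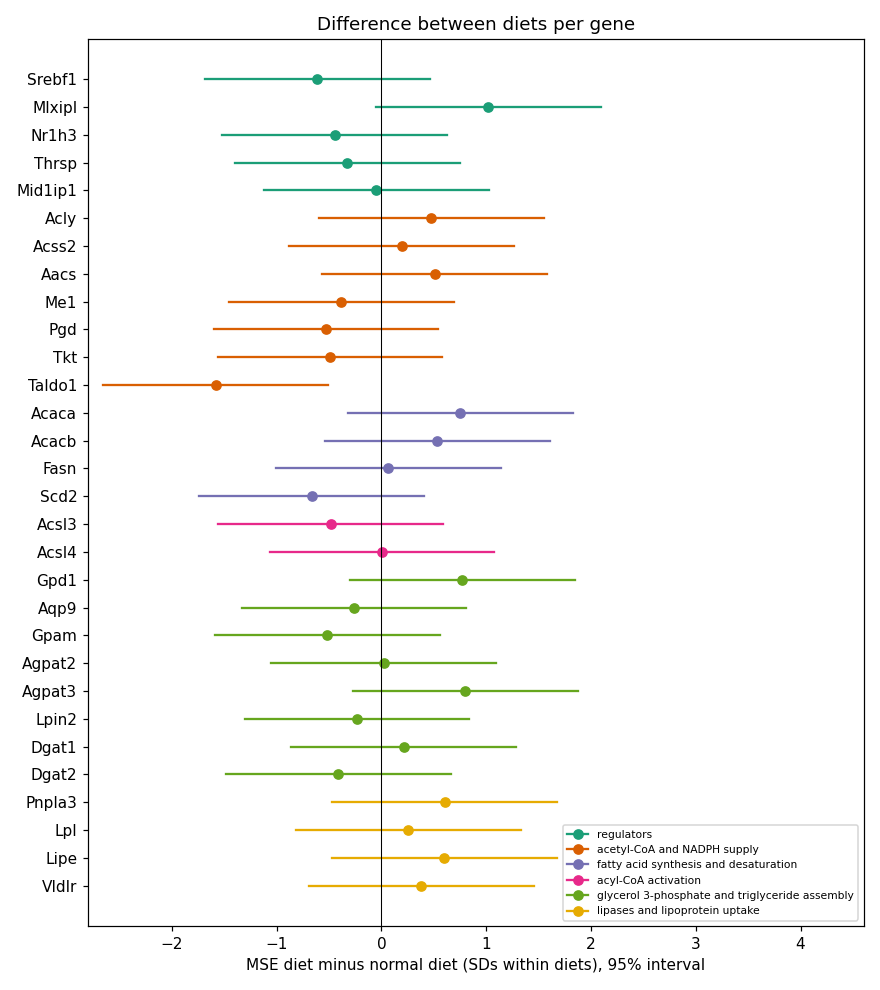
Points are the difference MSE minus normal diet in SDs within diets and bars the 95% interval, for each of the 30 genes, with colour for role. Among the 30 intervals, that of Taldo1, from -2.65 to -0.51, is the one that leaves out 0.

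The transcription factors and their accessory proteins came first in the pathway, and 4 of these 5 genes had a lower mean with MSE. Srebf1, which encodes SREBP-1, the insulin-responsive activator of fatty acid synthesis genes, ran from -3558 through a median of 678 to 4839 on the normal diet. With MSE it ran from -7447 through a median of 619 to 2312. The medians were close and the groups overlapped, while MSE replicates 1 and 3 lay below all normal-diet mice. The means were 1028 ± 3109 (SD, n = 8) and -1028 ± 3588 (SD, n = 8), 0.61 SDs lower with MSE (lower in 40 of 64 pairs), with an unadjusted limma p of 0.228 and an adjusted p of 0.896. With the replicate number as a block the unadjusted limma p of Srebf1 was 0.0606 and its adjusted p 0.592. Mlxipl, which encodes the glucose-responsive factor ChREBP, had the largest difference upwards among the 30 genes, 1.02 SDs (higher in 50 of 64 pairs). Its values ran from -204.3 through -9.33 to 69.5 on the normal diet and from -8.45 through 28.5 to 77.2 with MSE. Of the normal-diet mice 4 lay below all MSE mice, 2 MSE mice lay above all normal-diet mice, and the SD was 90.04 on the normal diet and 32.2 with MSE. The unadjusted limma p of Mlxipl was 0.0541 and its adjusted p 0.755, and its difference was -0.02 SDs after quantile normalization.

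The remaining regulators differed less. Nr1h3, the oxysterol receptor LXR alpha, was 0.44 SDs lower, in 42 of 64 pairs, and higher by 0.65 SDs after quantile normalization. Thrsp, a small nuclear and cytosolic protein that promotes lipogenesis, was 0.33 SDs lower, in 40 of 64 pairs. It was also the most variable member: normal-diet mice ran from -32263 through 7292 to 30435, and MSE mice from -31383 through -222.6 to 27558. Mid1ip1, a relative of Thrsp that promotes the assembly of acetyl-CoA carboxylase into filaments, was 0.05 SDs lower, and its sign turned when any of 5 mice was left out.

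Enzymes that supply acetyl-CoA and NADPH held the gene with the smallest p. Taldo1, transaldolase of the non-oxidative pentose phosphate branch, ran from -25.3 through 15.9 to 36.8 on the normal diet and from -32.1 through -10.8 to 8.29 with MSE. Normal-diet replicate 3 was low and MSE replicate 7 was the highest of its group, so the groups overlapped, but the other 7 normal-diet mice were above 7 of the MSE mice. The means were 12.6 ± 18.3 (SD, n = 8) and -12.6 ± 13.3 (SD, n = 8), 1.58 SDs lower with MSE and lower in 57 of 64 pairs. The unadjusted limma p was 0.00556, the exact permutation p 0.00901 and the adjusted limma p 0.555. Leaving out normal-diet replicate 3 gave a difference of -2.51 SDs, at an adjusted p of 0.273. After quantile normalization Taldo1 was 0.14 SDs higher, so its direction rests on the values as deposited. Tkt, transketolase of the same branch, was 0.49 SDs lower in 40 of 64 pairs, and Pgd, phosphogluconate dehydrogenase of the oxidative branch, 0.53 SDs lower, also in 40 pairs. Each had 1 other probe set with the opposite sign. For Tkt it was 0.78 SDs higher, at a mean of 6.04 log2 units, a level near the array medians. The remaining probe set of Tkt, with a mean of 7.93, was 0.47 SDs lower. For Pgd the opposite probe set was 0.31 SDs higher, and the remaining ones were 0.18 and 0.26 SDs lower. Tkt was 0.37 SDs higher after quantile normalization.

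The other suppliers went both ways. Me1, the cytosolic malic enzyme, was 0.38 SDs lower, but its second probe set was 0.52 SDs higher. The values of Me1 on the normal diet ran from -269.6 through 79.5 to 128.2, with replicate 1 far below the rest, and in MSE mice from -131.3 through -28.7 to 109.5. Acly, ATP citrate lyase, was 0.48 SDs higher in 41 of 64 pairs, Acss2, which activates acetate, 0.19 SDs higher, and Aacs, which activates acetoacetate for lipid synthesis, 0.51 SDs higher. Of the 5 other probe sets of Acly 2 were higher and 3 lower, from -0.33 to 0.72 SDs. All 3 probe sets of Aacs were higher, by 0.51 to 0.77 SDs. Without normal-diet replicate 1 the difference of Me1 was -1.19 SDs, at an adjusted p of 0.619.

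Of the 4 genes of fatty acid synthesis and desaturation 3 had a higher mean with MSE, and 0 reached an unadjusted p under 0.05. Fasn, the multifunctional fatty acid synthase, ran from -81.5 through -20.2 to 85.8 on the normal diet and from -49.6 through 7.09 to 61.0 with MSE. The groups overlapped almost fully, and the difference was 0.07 SDs, in 33 of 64 pairs, with a 95% interval from -1.01 to 1.14 SDs. After quantile normalization Fasn was 0.74 SDs higher. Acaca, the cytosolic acetyl-CoA carboxylase, was 0.75 SDs higher in 45 of 64 pairs, with an interval from -0.32 to 1.83 SDs. Its second probe set was 0.52 SDs lower, at a mean of 5.85 log2 units, below the array medians. Acacb, the carboxylase at the mitochondrial surface whose malonyl-CoA restrains entry of fatty acids, was 0.53 SDs higher. Both carboxylase genes had the other sign after quantile normalization, -0.17 and -0.22 SDs. Scd2, a stearoyl-CoA desaturase, was 0.66 SDs lower in 47 of 64 pairs. Its other probe sets were 0.79 SDs higher and 0.32 SDs lower, so these probe sets do not give 1 direction for the gene. All 3 had means below the array medians, from 5.57 to 5.998 log2 units, and Scd2 had the lowest level among the members measured. Without normal-diet replicate 3, which was low, the difference of Scd2 was -1.30 SDs, at an adjusted p of 0.628. Acsl3 and Acsl4 encode acyl-CoA synthetases, the latter with a preference for arachidonate. Acsl3 was 0.49 SDs lower, with all 3 probe sets lower, and Acsl4 differed by 0.01 SDs. After quantile normalization Acsl3 was at -1.51 SDs, with an unadjusted limma p of 0.00819 and an adjusted p of 0.414, and Acsl4 at 0.62 SDs.

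Triglyceride assembly was divided between higher and lower genes, 4 each. Of the sources of glycerol phosphate, Gpd1, the cytosolic glycerol phosphate dehydrogenase, was 0.77 SDs higher in 45 of 64 pairs. Of its other probe sets 2 were higher and 1 lower, the latter at a mean of 5.46 log2 units, below the array medians. Aqp9, the glycerol channel of hepatocytes, was 0.26 SDs lower with a second probe set 0.35 SDs higher. Gpam, the mitochondrial acyltransferase of the first step, was 0.52 SDs lower as deposited and 0.59 SDs higher after quantile normalization. Agpat2 and Agpat3 acylate lysophosphatidic acid. Agpat2 differed by 0.02 SDs, and Agpat3 was 0.80 SDs higher in 47 of 64 pairs, with 1 of its 3 other probe sets 1.01 SDs higher, another 0.11 SDs higher and the last 0.20 SDs lower. Agpat3 was -0.37 SDs after quantile normalization. Lpin2, a phosphatidate phosphatase, was 0.23 SDs lower, and its 3 other probe sets were lower by 0.20 to 0.30 SDs.

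The last step is shared by 2 unrelated enzymes, whose genes had small differences. Dgat1 was 0.21 SDs higher, with an interval from -0.86 to 1.29 SDs, and 0.85 SDs higher after quantile normalization. Dgat2 ran from -352.1 through 81.9 to 231.4 on the normal diet and from -544.4 through 60.3 to 201.0 with MSE. Normal-diet replicate 3 and MSE replicates 1 and 3 were far below the other 13 mice, which overlapped between diets. The difference of Dgat2 was 0.41 SDs lower with MSE, in 39 of 64 pairs, with an adjusted limma p of 0.944.

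Lipases and the lipoprotein receptor all had higher means with MSE, in 4 of 4 measured genes, where 48.3% of all genes were higher, and 0 of the 4 reached an unadjusted p under 0.05. Of these 4 genes, Pnpla3 and Lipe had low levels, with means of 6.02 and 6.10 log2 units, near the array medians of 6.04. Pnpla3, a lipid droplet protein under SREBP-1c control, was 0.60 SDs higher in 44 of 64 pairs. Lipe, hormone-sensitive lipase, was 0.60 SDs higher in 46 of 64 pairs (0.01 SDs after quantile normalization), Vldlr, the very low density lipoprotein receptor, 0.38 SDs and Lpl, lipoprotein lipase, 0.25 SDs. Of the 5 other probe sets of Vldlr, 3 were higher and 2 lower, the latter including 1 at 0.80 SDs lower in 51 of 64 pairs. All 5 had means below the array medians, from 5.39 to 5.81 log2 units. Lipe and Lpl are highly expressed in adipocytes, and Lpl also in macrophages. Adipocyte markers were measured for 4 of 7 listed genes. Their mean z value ran from -0.93 to 0.46 on the normal diet and from -0.33 to 0.85 with MSE. Their summed levels lay between 25.105 and 25.106 log2 units in both diets, on a scale where mice differ very little, so that sum does not show equal adipocyte content. Adipoq, which encodes adiponectin, had a mean of 5.56 log2 units and was 1.24 SDs higher and Fabp4 0.66 SDs lower. Kupffer cell and macrophage markers had lower means in 10 of 10 genes, where 48.3% of all genes were higher. Of the 10, 0 reached an unadjusted limma p under 0.05. After quantile normalization C1qa and C1qb were 0.07 and 0.89 SDs higher, and Adgre1 was 1.58 SDs lower. The mean z value of the 10 ran from -0.97 to 1.15 on the normal diet and from -1.15 to 0.87 with MSE. The part of these cells in the values of Lipe and Lpl was not tested.

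The spread between mice varied widely among the members. The SD within diets ran from 4.85 millionths for Pnpla3 to 20338 for Thrsp, a ratio of 4190, and the median of the members was 53.8, against 5.60 over all genes. Of the 30 members, 18 were among the 1820 genes of largest SD. Thrsp and Srebf1 were the 2 members with an SD above a thousandth of a log2 unit, and stood at percentiles 99.9 and 99.5 of all genes. Lpin2, Lpl, Mid1ip1, Acsl4, Aacs and Dgat2 followed, with SDs from 233.7 to 440.9. How the authors summarised the probes is not given in the sources used here, so this order describes the deposited values.

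Low rates in the authors' deposited table were most frequent among the variable genes. The header of the authors' deposited table calls these values false discovery rates. They reach 1.35 among the members (Acss2, lower), above the bound of a true proportion. How they were estimated is not given in the sources used here, so they are quoted as the authors' values and were not checked as error rates. In the authors' deposited table, 10 of the 30 members have a value under 0.05 in at least one direction, where 5.85% of all genes do. For higher expression with MSE these are Mlxipl (0.00951), Aacs (0.0100), Thrsp (0.0127) and Lpl (0.0158) in the authors' deposited table, where 2.52% of all genes have such a rate. For lower expression the authors' deposited table gives Thrsp a rate of 0, Srebf1 1.71e-05, Me1 0.0173, Lpin2 0.0247, Scd2 0.0285, Taldo1 0.0321 and Dgat2 0.0321, where 3.76% of all genes have such a rate. Thrsp thus passes in both directions at once, as 0.434% of all genes do. Of those 18 members, 9 have a rate under 0.05, and 52.8% of the 1820 genes do, in the authors' deposited table. Of the 12 remaining members, Taldo1 alone does, where 0.629% of the other genes do. By limma, 9 of these 10 members had an unadjusted p over 0.05.

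**Figure D3:**
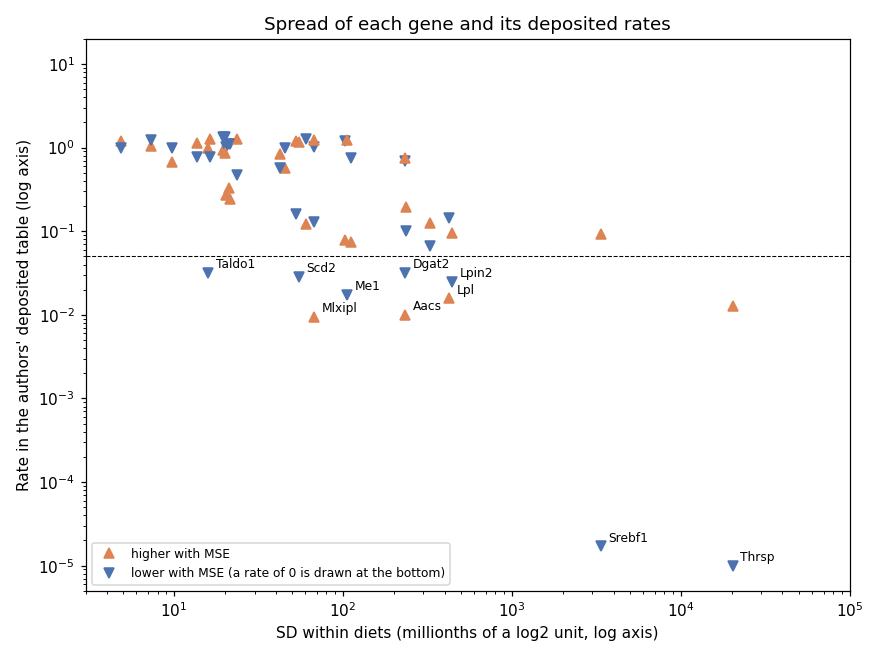
For each of the 30 genes, the horizontal axis is the SD within diets in millionths of a log2 unit (log axis) and the vertical axis the rate in the authors' deposited table (log axis), for higher (upward triangles) and lower expression with MSE (downward triangles); the dashed line is 0.05 and genes under it are named at their lower rate. Srebf1 and Thrsp lie far to the right, with SDs of 3357 and 20338, and have the lowest rates for lower expression.

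Correlations with Srebf1 across mice were above 0 for most members, and no member passed over all genes. After the diet means were taken out, Pearson's r with Srebf1 over the 16 mice was above 0 for 21 of 29 members, where 49.8% of all genes were above 0, and its median was 0.34, against -0.0018 over all genes. At an unadjusted permutation p under 0.05 there were 9 members, all with r above 0, where 9.11% of all genes reached that level with r above 0 and 5.49% with r below 0. Adjusted over all 18193 other genes, 0 members and 0% of all genes passed at 0.05. Dgat2 had r = 0.86 and a Spearman rho of 0.71 (permutation p 3.20e-04, adjusted p 0.0985), and its second probe set had r = 0.79. Mid1ip1 had r = 0.81 and rho 0.66 (permutation p 0.00143, adjusted p 0.127), and Acly r = 0.76 and rho 0.72 (permutation p 7.00e-04, adjusted p 0.102). The other 5 probe sets of Acly had lower r, from 0.09 to 0.58, with 0.39 (permutation p 0.157) for the highest of them by mean. The probe set that stands for Acly has a name ending in _x_at, which marks probes that may bind other transcripts. Nr1h3, Pgd, Taldo1 and Acsl3 followed with r from 0.61 to 0.66, then Lipe with 0.55 and Tkt with 0.50. Fasn and Thrsp had r = 0.46 and 0.42, with permutation p of 0.0747 and 0.113. Acsl4, Pnpla3 and Lpin2 had the lowest r, from -0.38 to -0.32, and all 4 probe sets of Lpin2 were below 0. The contrast with all genes depended on the setting. With the replicate number as a block, r was above 0 for 16 of 29 members, with a median of 0.06 against 0.05 over all genes. Without the 3 mice lowest in Srebf1 it was above 0 for 18 (median 0.11, against 0.0017). After quantile normalization it was above 0 for 22 (median 0.40, against 0.26).

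Within diets the relation of Dgat2 to Srebf1 was r = 0.81 on the normal diet (exact permutation p 0.00330, n = 8) and 0.90 with MSE (exact permutation p 0.0336, n = 8). The relation of Acly was 0.73 (exact permutation p 0.0422, n = 8) and 0.88 (exact permutation p 0.0131, n = 8). The low values of these genes were shared by few livers. Srebf1, Dgat2, Mid1ip1 and Acly were low together in MSE replicate 3 and normal-diet replicate 3, and the first 3 of these genes also in MSE replicate 1. Without the 2 mice farthest from the median of Srebf1, MSE replicates 1 and 3, r was 0.71 for Dgat2, 0.73 for Acly and 0.60 for Mid1ip1, and 3 members had a permutation p under 0.05, Dgat2, Acly and Aacs, the last with r = 0.68, which had 0.37 over all 16 mice. Without normal-diet replicate 3 as well, r over 13 mice was 0.51 for Dgat2 (permutation p 0.144), 0.56 for Acly (permutation p 0.129) and 0.48 for Mid1ip1 (permutation p 0.210). Without the 3 livers low in Srebf1, 0 of the 9 members had a permutation p under 0.05. These livers were picked by Srebf1 itself after the data were seen. Leaving them out narrows the range of Srebf1 and leaves 13 mice, which can lower r and raise p for a real linear relation too. It therefore cannot decide whether the relation rests on these livers. With any 1 mouse left out, 7 to 11 members had a permutation p under 0.05. Without the 3 livers, 2 members did, Aacs with r = 0.65 and Pnpla3 with r = -0.73. With the replicate number as a block, r over the 8 same-numbered differences was 0.79 for Dgat2 (exact permutation p 0.0221) and 0.64 for Mid1ip1 (exact permutation p 0.0829), and Acly had the other sign, -0.41 (exact permutation p 0.317). Without the 3 livers low in Srebf1, Taldo1 was at -2.47 SDs between diets, with an adjusted limma p of 0.577. The mean z value of hepatocyte markers had r = 0.46 with Srebf1 and that of adipocyte markers r = -0.41, and their part in the relation was not tested.

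**Figure D4:**
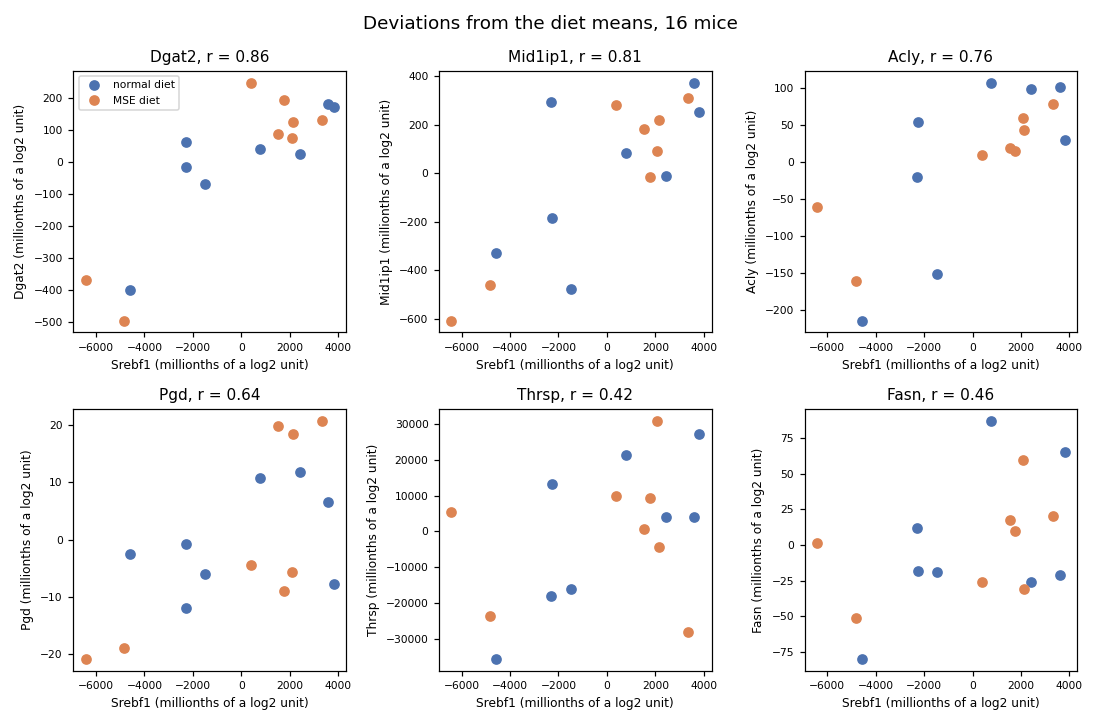
Each panel plots 1 gene (vertical axis) against Srebf1 (horizontal axis) as deviations from the diet means in millionths of a log2 unit, with 1 point per mouse and colour for diet. For Dgat2, 3 mice with Srebf1 deviations from -6419 to -4586 lie apart at the lower left. The r of 0.86 falls to 0.51 without them, over a narrower range of Srebf1.

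The upstream sequences of the members the text turns on are shown so that their promoter letters can be compared. They are the 250 bases before the RefSeq start of each gene (build GRCm38.p6), 5′ to 3′ on the gene's strand. Capitals mark matches, on either strand, to the sterol regulatory element TCACNCCAC, the E-box CACGTG, the NF-Y box CCAAT or the nuclear receptor half-site AGGTCA. Mid1ip1 and Acly had the highest r with Srebf1 among members in the promoter table, Fasn is the pathway's central enzyme, Taldo1 had the smallest p between diets, and the downstream of 2 Mlxipl promoters is the one member promoter that holds the sterol regulatory element. The CCAAT matches of opposite strand nearest the start of Fasn overlap in part, and Mid1ip1 holds no match.
Mid1ip1, chrX:10717115-10717364, + strand: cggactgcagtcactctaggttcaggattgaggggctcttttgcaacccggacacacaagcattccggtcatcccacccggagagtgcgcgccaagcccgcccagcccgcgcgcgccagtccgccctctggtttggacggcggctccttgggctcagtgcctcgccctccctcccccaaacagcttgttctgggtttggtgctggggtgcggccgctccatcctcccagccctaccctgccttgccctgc
Acly, chr11:100528001-100528250, - strand: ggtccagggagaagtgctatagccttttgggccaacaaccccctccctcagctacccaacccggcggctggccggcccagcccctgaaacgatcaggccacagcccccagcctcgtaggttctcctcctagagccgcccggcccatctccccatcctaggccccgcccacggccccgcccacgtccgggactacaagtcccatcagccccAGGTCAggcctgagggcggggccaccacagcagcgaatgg
Fasn, chr11:120824548-120824797, - strand: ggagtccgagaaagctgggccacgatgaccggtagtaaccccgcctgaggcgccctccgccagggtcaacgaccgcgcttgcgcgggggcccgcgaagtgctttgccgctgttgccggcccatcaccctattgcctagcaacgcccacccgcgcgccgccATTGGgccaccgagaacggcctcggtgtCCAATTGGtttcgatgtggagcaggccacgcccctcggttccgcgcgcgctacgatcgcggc
Taldo1, chr7:141391910-141392159, + strand: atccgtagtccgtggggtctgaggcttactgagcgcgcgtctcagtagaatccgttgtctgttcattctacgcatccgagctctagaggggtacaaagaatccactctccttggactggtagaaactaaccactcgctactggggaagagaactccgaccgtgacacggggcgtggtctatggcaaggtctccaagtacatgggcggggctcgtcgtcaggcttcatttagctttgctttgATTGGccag
Mlxipl, chr5:135106641-135106890, + strand: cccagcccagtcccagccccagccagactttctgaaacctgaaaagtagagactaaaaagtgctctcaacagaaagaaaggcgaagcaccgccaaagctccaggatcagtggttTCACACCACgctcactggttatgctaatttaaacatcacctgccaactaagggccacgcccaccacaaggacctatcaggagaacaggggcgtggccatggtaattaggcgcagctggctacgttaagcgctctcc

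Of the 32 listed members, 27 had an entry in the promoter table, with 40 promoters. The sterol regulatory element letters stood in 1 of these 40 promoters and in 1.05% of all 32851 promoters of that table. The E-box stood in 3, in promoters of Mlxipl, Lipe and Lpin2, against 6.02% of all. The CCAAT letters stood in 17 of 40 against 33.8% of all, with 3 matches each in promoters of Fasn, Lpin2 and Lipc, and the half-site in 3 of 40 against 14.02%. These are letter matches only, and a window without a match says nothing of the factor.

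The neighbouring parts of lipid metabolism are given as counts, from lists drawn up with earlier results of these data known. In the elongation and desaturation list 11 of 13 genes were higher with MSE and 6 reached an unadjusted p under 0.05, all higher, where 2.59% of all genes did so, and 0 passed over all genes. Elovl5, which elongates polyunsaturated acyl chains, was 2.10 SDs higher in 63 of 64 pairs (adjusted p 0.354), Elovl6, which extends palmitate, 1.45 SDs (adjusted p 0.606), and Tecr, the reductase of the elongation cycle, 1.31 SDs (adjusted p 0.648). Elovl5 kept 1 rank on all arrays, so quantile normalization left it no difference. The median of the elongation and desaturation list was 0.82 SDs, and that of the 4 members Acaca, Acacb, Fasn and Scd2 was 0.30 SDs. The lists were not tested against each other.

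The lists closer to triglyceride storage were mixed. Of 11 PPAR gamma steatosis genes, 3 were higher and 1 lower at an unadjusted p under 0.05, where 2.59% and 4.07% of all genes were, with G0s2, an inhibitor of adipose triglyceride lipase, 1.92 SDs higher (adjusted p 0.427), and Fitm2, a protein of droplet formation, 1.07 SDs higher (adjusted p 0.734). Mogat1, a monoacylglycerol acyltransferase, was 1.07 SDs lower (adjusted p 0.734), the single gene of 13 paralogs of glycerolipid synthesis at an unadjusted p under 0.05, where 6.66% of all genes were. Of 10 genes of SREBP processing 8 were lower and 0 reached that level, with Insig1, which retains SREBP in the endoplasmic reticulum, 0.45 SDs lower. Of 9 genes around LXR 6 were lower, with the sterol exporter Abcg5 1.01 SDs lower (adjusted p 0.755), and -0.06 SDs after quantile normalization. Of 10 genes that supply lipogenesis from sugar 5 were higher and 5 lower, with Pdk4, which inhibits pyruvate dehydrogenase, 0.76 SDs higher (adjusted p 0.847). Of 15 cholesterol synthesis genes, targets of the related factor SREBP-2, 7 were higher and 8 lower, with Nsdhl, a sterol dehydrogenase, at -1.50 SDs (adjusted p 0.606) and at 0.07 SDs after quantile normalization. Across mice, r with Srebf1 was above 0 for 9 of 10 genes of the sugar list (median 0.43) and 10 of 15 of the cholesterol list (median 0.26), where 49.8% of all genes were above 0, and 0 of these genes passed over all genes. Without the 3 livers lowest in Srebf1 it was above 0 for 7 of 10 (median 0.20) and 11 of 15 (median 0.19).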

How the data were processed

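Liver RNA of 16 mice was measured on 3' expression arrays, 1 mouse per array. The authors deposited log2-like values, with base inferred from the range. The submitters' processing notes name R 3.2.2, while the way probes were summarised is not given in the sources used here. Their other deposited table, also from the authors, holds a score per probe set and direction, named a false discovery rate in its header although values exceed 1, whose test is not given in the sources used here. Its 16 per-mouse columns were not used. Of 45101 probe sets 34958 named 1 gene in the platform annotation, 932 named several and 9211 were unlisted here. Precision is limited by the number of mice. For 6 members the probe set name ends in _x_at or _s_at, which marks probes that may bind other transcripts. These are Acly, Pgd, Tkt and Vldlr (_x_at) and Acsl3 and Dgat1 (_s_at).

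The test between diets was limma's (version 3.58.1, R 4.3.3; lmFit and eBayes, two-sided) without covariates, run on unchanged deposited values, with Benjamini-Hochberg adjustment over 18194 genes and a threshold of 0.05. Exact permutation used all regroupings of 8 and 8 mice. Correlations with Srebf1 used 100000 two-sided permutations within diets, adjusted over all genes rather than over the members, or all orders of 8 mice within a diet. The labels call the samples biological replicates. No batch was given in the sources used here. All 32 members are named by rule, with up to 3 genes of smallest p per neighbouring list. The members and lists were chosen with earlier results of these data known. Alternatives were quantile normalization, a shift of each array by its median deviation, the upper part of genes by mean, array weights, robust estimation with a trend on intensity, the replicate number as a block, the mean of probe sets, exact permutation, a threshold of 0.1 and leaving out each mouse. For Srebf1, Spearman's rho, both scalings, each mouse left out the replicate block and the 3 mice lowest in Srebf1 left out were added after the data were seen. The steps were tested on simulated data. Python 3.11.15 with NumPy 2.4.6, SciPy 1.17.1, pandas 2.3.3 and matplotlib 3.10.9 was used.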

Additional observations from a re-analysis of the deposited data

Results flagged for a closer look

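Among 60 sets of 8 values (30 genes in each diet), 4 held a mouse whose distance from the others exceeded Dixon's 95% limit. By chance about 1 set in 20 does so. The gap to the nearest mouse divided by the range was 0.544 for Me1 (normal-diet replicate 1, low), 0.536 for Scd2 and 0.568 for Dgat2 (normal-diet replicate 3, low in both) and 0.579 for Aqp9 (MSE replicate 2, high).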

How the results depend on the processing

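The count of members past an adjusted p under 0.05 was 0 under each alternative run, a threshold of 0.1 included, and the count of members with a higher mean stayed within 1.5 times of 16. The count at an unadjusted p under 0.05 was 1 as reported, where 1212 of 18194 genes reached that level. It was 4 with the replicate block (Taldo1, Mlxipl, Acly and Agpat3), where 1614 genes did. It was 4 without the 3 mice lowest in Srebf1, where 1025 genes did, and 1 to 2 when each mouse was left out, where 1020 to 1394 genes did. Quantile normalization also gave 1, but Acsl3 in place of Taldo1, where 1466 genes did. Replicate numbers were not taken as pairs, and the labels do not say whether they mark pairs. Of 8 same-numbered pairs 5 had a correlation of deviations above 0.1 (median 0.18, other pairs -0.03). Of 8 normal-diet mice 4 correlated best with their own number. The test between diets as reported takes no account of this likeness. The block changed the adjusted call of 0 members, but 0 were called without it, so this count could hardly differ. The limma p of Srebf1 was 0.0606 with the block and 0.228 without it. The neighbouring lists held 12 genes at an unadjusted p under 0.05, 6 after quantile normalization, 5 without the 3 mice and 7 to 16 when each mouse was left out. Signs turned after quantile normalization, which made the median SD of all genes 44.4 millionths in place of 5.60, for Mlxipl (-0.018 SDs), Nr1h3 (0.65), Acss2 (-0.18), Me1 (0.37), Tkt (0.37), Taldo1 (0.14), Acaca (-0.17), Acacb (-0.22), Gpam (0.59), Agpat3 (-0.37) and Lpin2 (0.064). They turned with array weights for Fasn (-0.011) and Acsl4 (-0.19), with the mean of probe sets for Acsl4 (-0.048) and Aqp9 (0.31), and without the 3 mice for Mid1ip1 (0.49), Fasn (-0.0038), Acsl4 (-0.47) and Gpam (0.0080). When each mouse was left out, values ran from -0.27 to 0.24 for Mid1ip1, -0.031 to 0.50 for Acss2, -0.21 to 0.39 for Fasn, -0.29 to 0.30 for Acsl4, -0.32 to 0.23 for Agpat2 and -0.043 to 0.48 for Dgat1, and from -2.51 to -1.45 for Taldo1. The cause was not tested. Of the relations to Srebf1, 0 passed over all genes as reported and 0 when each mouse was left out. With diet means kept in 1 passed, where 37 of 18193 genes did, and after quantile normalization 5, where 2439 genes did. At an unadjusted p the count was 9 as reported and 7 to 11 when each mouse was left out. It was 3 without the 2 farthest mice (2 of the 9, and Aacs) and 2 without the 3 lowest (Aacs and Pnpla3, neither among the 9). With the replicate block it was 2 (Dgat2, and Me1 with r = -0.83), where 3.84% of all genes reached that level with r above 0 and 2.48% with r below 0.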
